A study of Oryza sativa with 5 samples.

Results

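The NAC genes of rice were examined as a family in tag libraries from seedlings of 5 genotypes. They were taken as every gene whose description in the deposited gene tables contains the words "no apical meristem" or "NAC domain", which gave 77 of the 22546 genes listed. Of these, 71 were described as no apical meristem proteins and 6 as NAC domain proteins. All 12 chromosomes carried at least 3 of them.

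NAC proteins are transcription factors of plants that bind DNA through a conserved domain at the N terminus, named after the petunia and Arabidopsis genes in which it was first described, while the C-terminal part activates or represses transcription. In rice, members of the family are known for roles in the response to drought, salt and pathogens, in leaf senescence, in the formation of secondary cell walls and in seed development. Several members are cut at the transcript level by the microRNA miR164, and some are held at a membrane until they are released to the nucleus.

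Each genotype gave 1 library, from seedlings kept in vitro for 15 days under a cycle of 15 h light and 9 h dark. MH63 (Minghui 63, the male parent) and ZS97 (Zhenshan 97, the female parent) are indica varieties, and SY63 (Shanyou 63) is their hybrid. FU and FR are SY63 hybrids obtained with transgenic MH63 plants. In FU the full cDNA of OsHDT1, a histone deacetylase gene, was driven by the maize ubiquitin promoter, and in FR an OsHDT1 RNAi fragment was driven by the CaMV 35S promoter; the sample labels give FU the code FV. Both promoters are active in most tissues, and the sources used here do not give which transgenic line each library came from or how many seedlings went into it.

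In this assay each cDNA is cut at its CATG sites with NlaIII and 1 short tag is read from the cut nearest the 3′ end, so counts do not scale with transcript length. TPM stands for the tags of a gene scaled to 1000000 clean tags of its library. The libraries held between 4821637 and 5022081 clean tags, of which 69.5% to 73.9% lay on genes, and a count of 0 allows up to 3 tags, or 0.597 to 0.622 TPM. OsHDT1 (LOC_Os05g51830) had 2633 tags in MH63 and 304 in ZS97, against 428 in SY63, 7590 in FU and 142 in FR, so it was 17.9-fold higher in FU and 3.11-fold lower in FR than in SY63, as the labels state. With 1 library per genotype there is no spread between replicates. The exact test of Audic and Claverie compared libraries, not genotypes, and the 95% intervals cover counting error only. A gene is called higher or lower where the false discovery rate (FDR) over all genes tested was at most 0.001 and the log2 ratio of TPM was at least 1 in size.

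The summed level of the 77 NAC genes was higher in the parents than in any of the 3 hybrid libraries. It was 1301 TPM in MH63 (interval 1270 to 1333) and 1136 in ZS97 (1107 to 1166), against 898 in SY63 (872 to 925), 965 in FU (938 to 993) and 846 in FR (821 to 872). Parental and hybrid intervals did not overlap. As a share of the tags on genes the family took 0.176% in MH63 and 0.163% in ZS97 against 0.128%, 0.136% and 0.12% in SY63, FU and FR. With edgeR's TMM scaling the parents stood closer to each other, at 1198 and 1191 scaled TPM against 914, 946 and 878 in the same 3 hybrid libraries. In bulk seedlings, fewer cells of a type and less RNA per cell cannot be told apart.

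**Figure D1:**
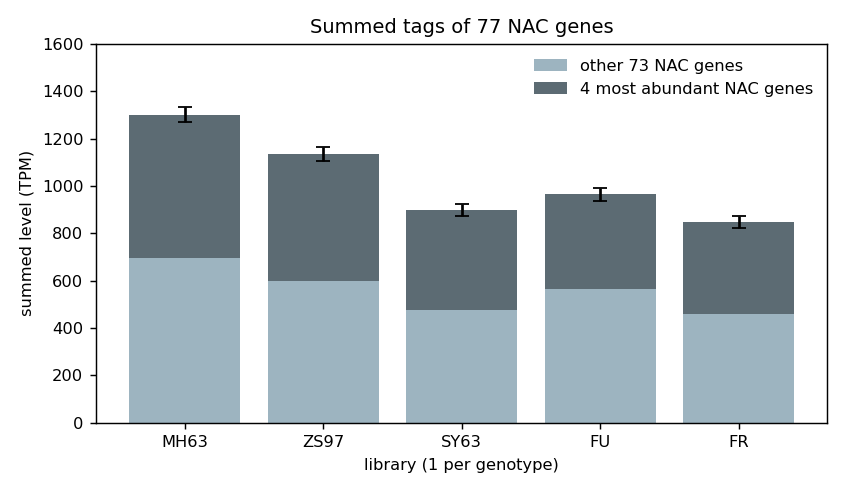
Summed level of the 77 NAC genes in TPM (y axis, from 0) in each of the 5 libraries (x axis), with the 4 most abundant genes in dark and the other 73 in light grey. Error bars are exact 95% Poisson intervals of the summed count; the parents MH63 and ZS97 stand at 1301 and 1136 TPM and the hybrid libraries between 846 and 965.

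A few genes carried most of these tags. The 2 most abundant genes held 29.8% of the 25421 NAC tags of all libraries, the first 4 held 45.7% and the first 10 held 67.8%. Without the first 4 genes the family still summed to 697 TPM in MH63 and 597 in ZS97, against 475 in SY63, 566 in FU and 460 in FR. Of these sums, reckoned after the data were seen, the intervals of ZS97 (576 to 619) and FU (545 to 588) overlapped, while MH63 (674 to 720) lay above and SY63 (456 to 495) and FR (442 to 480) below both parents.

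The most abundant member, LOC_Os08g42400, had 240.0 TPM in MH63 and 192 in ZS97, against 165 in SY63, 159 in FU and 145 in FR. All 3 hybrid libraries lay below both parents, but the highest level was only 1.65 times the lowest and no comparison passed the thresholds. LOC_Os01g66120, known as OsNAC6 or SNAC2, an activator of genes of drought, salt and blast resistance, had 200 TPM in MH63 and 153 in ZS97, against 103 in SY63, 71.3 in FU and 101 in FR. It was again lower in every hybrid library than in either parent, with a range of 2.80 times, and its log2 ratio of SY63 to MH63 (-0.95, FDR = 5.7e-34) fell just short of the threshold on size. LOC_Os05g35170 had 120 TPM in MH63 and 62.5 to 72.2 TPM in the other 4 libraries, so that MH63 alone stood apart (log2 ratio of MH63 to ZS97 0.94, FDR = 3.5e-20, also just short). The least variable member with at least 50 tags was LOC_Os02g57650, with 48.5 to 65.3 TPM and a range of 1.35 times.

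Of the other abundant members, LOC_Os08g06140 had 35.8 to 60.1 TPM with both parents highest. LOC_Os09g33490 had 27.1 TPM in MH63 and 32.5 in ZS97, against 16.7 in SY63, 31.9 in FU and 20.2 in FR, with SY63 lowest. Its log2 ratios of SY63 to ZS97 (-0.96), of SY63 to the mean of the parents (-0.84) and of FU to SY63 (0.94) passed the FDR but not the size. LOC_Os07g48550 had 14.4 to 26.6 TPM, with FR lowest and ZS97 highest, and was not called.

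In all, 19 of the 77 genes were called in at least 1 of 7 comparisons, and 58 were called in none. The same share over all genes was not reckoned, so this count has no background beside it. The shares of single comparisons follow. Most NAC calls between SY63 and MH63 were towards lower levels in SY63. Against MH63, 9 of the 71 NAC genes tested were called lower and 1 was called higher in SY63, beside 9.37% lower and 7.1% higher over all genes tested. Against ZS97, 3 of 67 were called lower and 1 higher, beside 1.07% and 2.88% over all genes. The share of NAC genes called lower was therefore 12.7% against MH63, near the background, and 4.48% against ZS97. Over NAC genes with at least 10 tags and more than 3 in both libraries, the median log2 ratio was -0.41 against MH63 (n = 50; -0.17 over 16415 genes of all kinds) and -0.19 against ZS97 (n = 50; 0.02 over 16552 genes). At an unadjusted p under 0.05, 30 NAC genes (42.3%) were lower and 3 (4.23%) higher in SY63 than in MH63, beside 29.3% and 20.2% of all genes. Against ZS97, 22 (32.8%) were lower and 3 (4.48%) higher, beside 15.1% and 16.4%.

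Whether the hybrid departs from the mean of its parents was asked of SY63 against the mid-parent. None of 73 NAC genes was called higher and 6 were called lower, beside 2.85% higher and 3.49% lower over all genes. At an unadjusted p under 0.05 there were 3 higher (4.11%) and 24 lower (32.9%), beside 16.8% and 23.2% of all genes, and the TMM and DESeq2 scalings also called 0 NAC genes higher. The median log2 ratio to the mid-parent was -0.27 over 51 NAC genes and -0.07 over 17370 genes. The 6 genes were LOC_Os01g60020, LOC_Os04g38720, LOC_Os05g34830, LOC_Os07g12340, LOC_Os07g48450 and LOC_Os12g41680, and these comparisons share the SY63 library and the parental libraries with those above.

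Between the parents, 3 of 73 NAC genes were called higher and 2 lower in MH63 than in ZS97, beside 10.7% and 6.86% of all genes. The median log2 ratio of MH63 to ZS97 was 0.39 over 52 NAC genes and 0.19 over 16100 genes. Scaling mattered here. TMM moved the log2 ratios of SY63 to MH63 by 0.14 and those of MH63 to ZS97 by -0.19, which gave 3 higher and 7 lower in the first comparison and 2 higher and 3 lower in the second; DESeq2's size factors gave 2 higher and 7 lower in the first and 2 higher and 3 lower in the second. The balance over all genes turned in both: SY63 against MH63 went from 1487 higher and 1962 lower to 1861 and 1461 with TMM (1837 and 1472 with DESeq2), and MH63 against ZS97 from 2192 higher and 1411 lower to 1568 and 1873 (1599 and 1830). For SY63 against ZS97, TMM gave 0 NAC genes higher and 5 lower in place of 1 and 3, and DESeq2 gave 1 and 4. Over all genes this comparison went from 598 higher and 222 lower to 557 and 256 with TMM (564 and 248 with DESeq2). Tags of a parent with more than 1 base changed from the japonica cDNAs would go uncounted, and such a difference and a difference in transcript level cannot be told apart here.

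The tests above know counting error only. Where a coefficient of variation of 0.2 between replicates was assumed, which these libraries cannot measure, edgeR's exact test kept 1 of the 10 NAC calls between SY63 and MH63 (LOC_Os05g34830), 1 of the 5 between the parents (LOC_Os01g01430) and none of those in the other comparisons. With 0.4 assumed it kept none of the NAC calls. Most calls over all genes were lost too. For SY63 against MH63 the share of all genes called fell from 16.5% to 3.31% at 0.2. Between the parents it fell from 17.5% to 4.61%. In the other comparisons at most 1.06% of all genes stayed called at 0.2. At 0.4 at most 0.944% stayed called in any comparison.

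**Figure D2:**
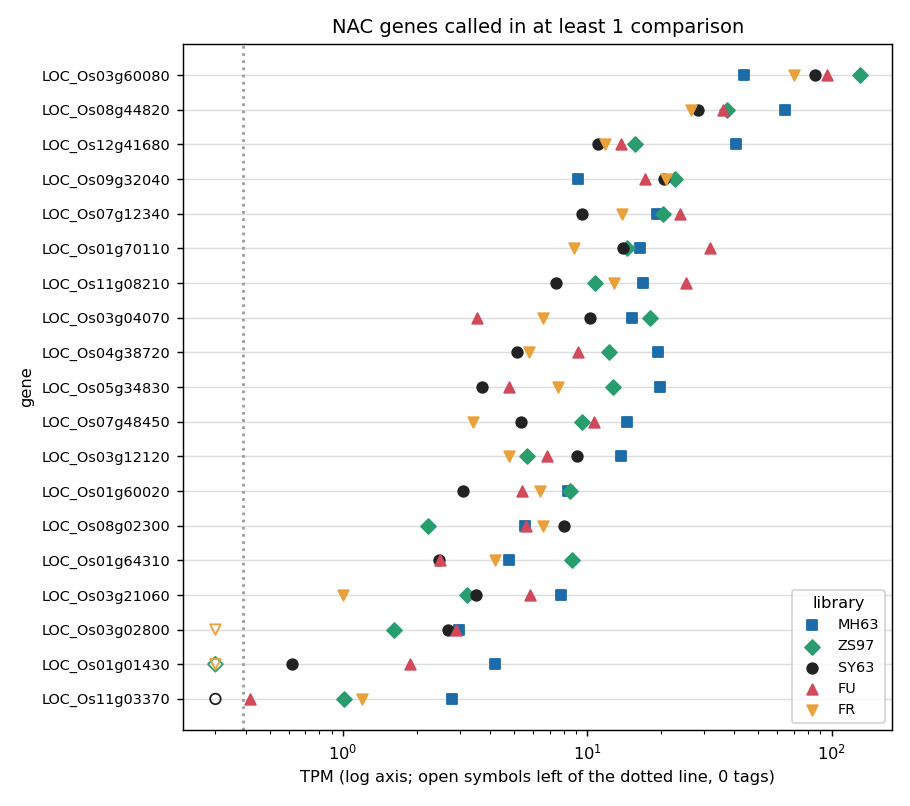
TPM (x axis, log scale) of the 19 NAC genes called in at least 1 comparison (y axis, by mean level), with 1 symbol per library and open symbols for 0 tags. SY63 (black circles) is the lowest library for genes such as LOC_Os05g34830, LOC_Os07g12340 and LOC_Os04g38720, and FU (red triangles) stands above the other libraries for LOC_Os01g70110 and LOC_Os11g08210.

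Rice NAC genes with reported roles were then taken by role. The tables give identifiers and generic descriptions only, so the common names used here come from general knowledge of rice. The RefSeq gene table of rice (assembly ASM3414082v1) holds 9 of the 38 names listed, each on the chromosome of the identifier, and the other names were not checked. Values of single genes do not depend on a name, but the sums and counts of each list depend on which loci it holds.

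The stress-responsive list held 11 genes, all of them in the tables. Its summed level was 332 TPM in MH63 and 359 in ZS97, against 230, 236 and 223 in SY63, FU and FR, so that both parents stood above all 3 hybrid libraries. Without OsNAC6 this order did not hold for the sum. The other 10 genes summed to 132 TPM in MH63 and 207 in ZS97. In SY63, FU and FR they summed to 126, 164 and 122, with FU above MH63. The most abundant of these 10, LOC_Os03g60080 (SNAC1), was lowest in MH63. It had 44 TPM there, 131 in ZS97 and 70.4 to 96 in the hybrid libraries, so the sum does not tell how the rest stood. In SY63, 4 of the 10 genes tested were called lower than in MH63 and 2 of 10 lower than in ZS97. Over all genes 9.37% and 1.07% were called lower, and the list was chosen with earlier results known. None was called higher in the main test. With TMM or DESeq2 scaling SNAC1 was called higher in SY63 than in MH63, and LOC_Os07g12340 (OsNAC3) lost its call against MH63.

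LOC_Os05g34830 (OsNAC52) gave the largest of these folds with more than 3 tags on both sides. It had 100 tags in MH63 and 63 in ZS97, against 18 in SY63, 23 in FU and 38 in FR. All 3 hybrid libraries were below the parents. It was 5.37-fold lower in SY63 than in MH63 (log2 -2.43, interval -3.24 to -1.69, FDR = 1.6e-13) and 3.43-fold lower than in ZS97 (FDR = 9.4e-06). LOC_Os01g60020 (OsNAC4), which in rice is linked to cell death after infection, had 42 tags in both parents, 15 in SY63, 26 in FU and 32 in FR. SY63 was again lowest, 2.73-fold below the mid-parent (FDR = 6.0e-04), although neither single parent gave a call and TMM and DESeq2 scaling ended this one (FDR = 0.0011 in both).

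LOC_Os07g12340 (OsNAC3) and LOC_Os11g08210 (OsNAC5), a gene induced by drought, salt and abscisic acid, shared a pattern in which SY63 was lowest and FU highest. LOC_Os07g12340 had 97 tags in MH63 and 101 in ZS97, against 46 in SY63, 115 in FU and 69 in FR, and was lower in SY63 than in MH63 (2.04-fold, FDR = 1.8e-04) and than in ZS97 (2.15-fold, FDR = 1.2e-04). LOC_Os11g08210 had 85 tags in MH63 and 53 in ZS97, against 36 in SY63, 122 in FU and 64 in FR. It was 2.28-fold lower in SY63 than in MH63 (FDR = 7.4e-05), while its log2 ratio to ZS97 was -0.53 (interval -1.18 to 0.11). LOC_Os07g12340 lost its call against MH63 with either TMM (log2 -0.88) or DESeq2 scaling (-0.89), and with 1 added to every TPM (-0.96).

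LOC_Os03g60080 (SNAC1), which acts in guard cells and promotes stomatal closure under drought, went the other way. It had 44.0 TPM in MH63 and 131 in ZS97, against 85.6 in SY63, 96.0 in FU and 70.4 in FR, with each hybrid library between the parents. It was 2.98-fold lower in MH63 than in ZS97 (log2 -1.58, interval -1.80 to -1.36, FDR = 1.2e-49). In SY63 it was above MH63 by a log2 ratio of 0.96 (FDR = 4.5e-15), just short of the threshold, and TMM scaling took that ratio to 1.11.

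The rest of the stress list was low or unequal. LOC_Os03g04070 (ONAC022) had 77 tags in MH63 and 89 in ZS97, against 50 in SY63, 17 in FU and 33 in FR, so FU was lowest and both parents highest. LOC_Os11g03370 (ONAC045), induced by drought and salt, had 14 tags in MH63 and 5 in ZS97, against 0 in SY63, 2 in FU and 6 in FR, and was at least 4.51-fold lower in SY63 than in MH63 (FDR = 3.2e-04). LOC_Os06g51070 (ONAC095) had 14 to 29 tags and no call. LOC_Os12g03040 (ONAC131) had at most 4 tags in any library. LOC_Os11g03300 (OsNAC10) had no tag in MH63, ZS97 or SY63, 10 in FU and 2 in FR, too few for a call.

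The miR164 list named 6 genes, of which 5 were in the tables. Their summed level was 85.4 TPM in MH63 and 48.6 in ZS97, against 38.5, 35.1 and 30.3 in SY63, FU and FR. LOC_Os12g41680 (OMTN3) had 205 tags in MH63 and 78 in ZS97, against 54 in SY63, 66 in FU and 59 in FR. MH63 stood far above the other 4 libraries, 2.59-fold above ZS97 (FDR = 6.1e-13) and 3.67-fold above SY63 (FDR = 9.9e-20), and SY63 was 2.54-fold below the mid-parent (FDR = 9.5e-11). LOC_Os04g38720 (OMTN2, also OsNAC2) had 98 tags in MH63 and 61 in ZS97, against 25 in SY63, 44 in FU and 29 in FR. It was 3.79-fold lower in SY63 than in MH63 (FDR = 4.1e-10) and 3.09-fold below the mid-parent (FDR = 5.0e-08), with all hybrid libraries below both parents.

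The remaining miR164 genes were not called in the main test. LOC_Os08g10080 had 99 tags in MH63 and 27 to 57 in the others, and its log2 ratio of MH63 to ZS97, printed as 1.00, lay just under the threshold (FDR = 2.7e-04). LOC_Os06g46270 (OMTN4) had 13 tags in MH63 and 36 in ZS97, against 36 in SY63, 26 in FU and 10 in FR, so that MH63 and FR were low together. With TMM scaling the exact test called it higher in SY63 than in MH63 (log2 1.66, FDR = 9.9e-04). It was also called lower in MH63 than in ZS97 with TMM (FDR = 5.5e-04) and DESeq2 scaling (FDR = 6.2e-04). LOC_Os02g36880 (OMTN1) had 6 to 17 tags.

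Among the leaf senescence genes, 3 of 4 were in the tables, with a summed level of 11.5 TPM in MH63, 5.24 in ZS97, 6.59 in SY63 and 9.13 in FU but 1.8 in FR. LOC_Os03g21060 (OsNAP), an activator of chlorophyll breakdown in ageing leaves, had 39 tags in MH63 and 16 in ZS97, against 17 in SY63, 28 in FU and 5 in FR. LOC_Os03g02800 (ONAC054), which acts in the same process, had 15 tags in MH63 and 8 in ZS97, against 13 in SY63, 14 in FU and 0 in FR. FR was the lowest library for both. LOC_Os08g33670 (ONAC106) had 2 to 4 tags in every library.

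Genes of chlorophyll breakdown and of stress protection that such factors are reported to act on were listed too. Of 6 genes listed, 5 were in the tables (SGR, NYC1, NYC3, RCCR1 and PAO), and none was called in any of the 7 comparisons. SGR (LOC_Os09g36200) had 77 tags in FU and 50 in FR, and PAO (LOC_Os03g05310) had 181 in FU and 96 in FR. The log2 ratio of FU to FR for PAO was 0.97 (FDR = 1.4e-06 in the exact test), just short of the threshold. In the same test the ratio of PAO to SY63 was 0.82 in FU (FDR = 5.3e-05) and -0.15 in FR (FDR = 0.73). For SGR it was 0.85 in FU (FDR = 0.014) and 0.17 in FR (FDR = 0.83). FR was thus near SY63 for both genes, and FU stood above it. In SY63, FU and FR, NYC3 (LOC_Os06g24730) had 146, 147 and 96 tags and RCCR1 (LOC_Os10g25030) had 11, 6 and 7. NYC3 was lower in FR than in SY63 by a log2 ratio of -0.65 (FDR = 0.007 in the exact test). NYC1 (LOC_Os01g12710), the most abundant of them, had 1465, 1554 and 1775 tags in SY63, FU and FR.

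The secondary wall list, with 4 of 4 genes in the tables, did not have the parents above the hybrids. Its summed level was 37.0 TPM in MH63 and 33.5 in ZS97, against 34.4 in SY63, 48.3 in FU and 39.7 in FR. LOC_Os08g02300 (OsSWN2), a switch gene of wall thickening, had 28 tags in MH63 and 11 in ZS97, against 39 in SY63, 27 in FU and 33 in FR. ZS97 was lowest, and SY63 was 3.62-fold higher than ZS97 (FDR = 7.1e-04); TMM scaling ended this call (FDR just above 0.001). LOC_Os05g48850 (OsSND2) had 53 and 44 tags in MH63 and ZS97 and 62, 78 and 65 in SY63, FU and FR, without a call. LOC_Os06g04090 (OsSWN1) had 49 tags in SY63 and 84 to 94 in the other libraries, and LOC_Os08g01330 (OsSWN3) had 12 to 34.

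Both genes of the membrane-tethered list were abundant. LOC_Os08g44820 (OsNTL5) had 64.7 TPM in MH63 and 37.3 in ZS97, against 28.4 in SY63, 35.9 in FU and 26.5 in FR. MH63 was highest and all hybrid libraries were below both parents; SY63 was 2.28-fold below MH63 (FDR = 4.4e-16) and, just short of the threshold, at a log2 ratio of -0.84 to the mid-parent. LOC_Os01g15640 (OsNTL3), which is released from the membrane in rice under heat, had 37.8 TPM in MH63 and 51.0 in ZS97, against 39.9 in SY63, 25.7 in FU and 34.3 in FR and was not called. None of the 6 genes of the endosperm list, known from the developing seed, was in the tables.

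Other called members have no role given here. LOC_Os07g48450 had 73 tags in MH63 and 47 in ZS97, against 26 in SY63, 51 in FU and 17 in FR. It was 2.72-fold lower in SY63 than in MH63 (FDR = 1.9e-05) and 2.24-fold below the mid-parent (FDR = 4.3e-04). LOC_Os01g64310 had 24 tags in MH63 and 43 in ZS97, against 12 in SY63, 12 in FU and 21 in FR, with SY63 3.51-fold below ZS97 (FDR = 3.5e-04). Both genes had SY63 below either parent.

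LOC_Os09g32040 had 46 tags in MH63 and 113 in ZS97, against 100 in SY63, 83 in FU and 105 in FR. MH63 was the only low library, 2.49-fold below ZS97 (FDR = 3.0e-07) and 2.25-fold below SY63 (FDR = 1.8e-05). LOC_Os03g12120 had 69 tags in MH63 and 28 in ZS97, against 44 in SY63, 33 in FU and 24 in FR, and was 2.43-fold higher in MH63 than in ZS97 (FDR = 2.0e-04), a call that both other scalings ended (FDR = 0.0021 with TMM, 0.0018 with DESeq2). LOC_Os01g01430 had 21 tags in MH63 and 0 in ZS97, against 3 in SY63, 9 in FU and 0 in FR. It was at least 6.91-fold higher in MH63 than in ZS97 (FDR = 5.7e-06), and its log2 ratio of SY63 to MH63 was -2.76 (interval -5.15 to -1.02, FDR = 8.1e-04), a call lost with TMM or DESeq2 scaling (FDR = 0.0019 in both).

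The position of each hybrid library relative to the parents was described for the 47 NAC genes with at least 50 tags over the 5 libraries. All 3 hybrid libraries lay below both parents for 14 of them (29.8%), beside 13.5% of 15727 genes of all kinds with as many tags. All 3 lay above both parents for 3 of them (6.38%), beside 13% of all genes. The 14 genes included OsNAC6, OsNAC4, ONAC022, OsNAC52, OMTN2, OMTN3 and OsNTL5 together with LOC_Os08g42400, and the 3 genes were OsSND2, OsSWN2 and LOC_Os10g33760. The order of the levels takes no account of counting error. LOC_Os02g57650, the least variable member, was also among the 14, with 63.4 TPM in SY63 and 64.8 in ZS97. The hybrid libraries share parents and the parental values were used for every gene, so these shares are a description without a test.

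Taken singly, SY63 lay below both parents for 24 of the 47 genes, FU for 21 and FR for 30. The shares over all genes were 31.3%, 29.4% and 32.8%. MH63 was the highest library for 21 genes (44.7%, near the 39.4% of all genes) and the lowest for 4 (8.51% beside 26.7%). FR was the lowest for 15 (31.9% beside 17.9%) and SY63 for 12 (25.5% beside 14.7%). With TMM scaling the count of genes below both parents in all 3 hybrids was 12, with DESeq2 size factors 12, and among the 39 genes with at least 100 tags it was 14; these alternatives were chosen after the data were seen.

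**Figure D3:**
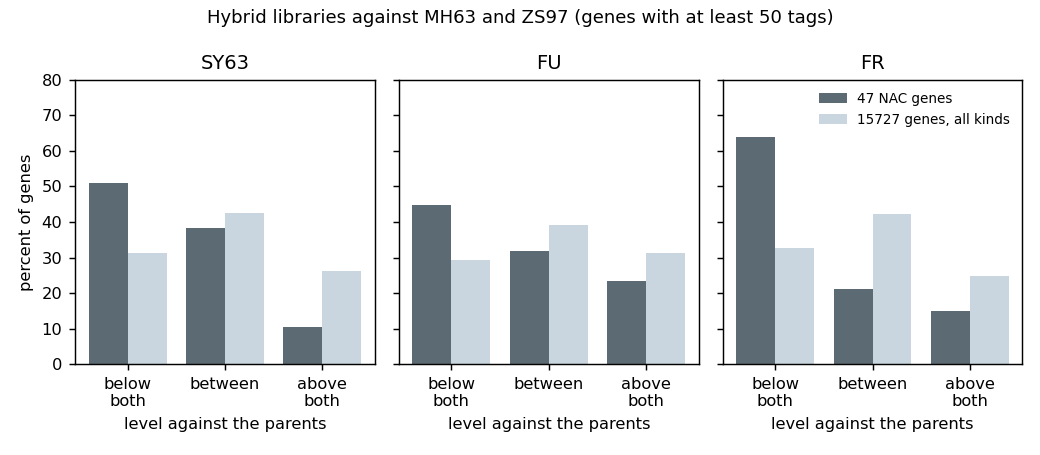
Percent of genes (y axis) whose level in SY63, FU or FR lay below both parents, between them or above both, for the 47 NAC genes with at least 50 tags (dark) and the 15727 genes of all kinds with as many tags (light). The NAC bars exceed the others in the class below both parents in each hybrid library, at 51.1%, 44.7% and 63.8%.

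FU, with more OsHDT1, was compared with SY63. Each is 1 library, and no hybrid from transgene-negative plants is among the 5 libraries. An effect of OsHDT1 and any other difference between these libraries cannot be told apart, and the same holds for FR. Of 70 NAC genes tested, 3 were called higher and 1 lower in FU, beside 2.19% and 0.812% of all genes. The median log2 ratio was 0.16 over 49 NAC genes and 0.05 over 17013 genes. FR against SY63 gave no call among 69 NAC genes, beside 0.585% higher and 0.576% lower over all genes, with a median of -0.02 over 49 NAC genes and -0.05 over 16943. At an unadjusted p under 0.05, 6 NAC genes (8.7%) were higher and 11 (15.9%) lower in FR, near the 10.9% and 14.0% of all genes. TMM and DESeq2 scaling also called 0 NAC genes, beside 1.11% and 1.13% of all genes. With edgeR's exact test only 4 genes of all kinds were called at a coefficient of 0.2 and 0 at 0.4. Its 0 NAC calls therefore add nothing. When only genes with at least 10 tags were tested, 1 gene was called lower, LOC_Os06g46270 (36 tags in SY63 and 10 in FR, log2 -1.89, FDR = 0.001 against 0.0012 in the main test).

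FU was compared with FR directly. Of 71 NAC genes, 4 were called higher in FU and none lower, beside 2.54% and 0.683% of all genes, and at an unadjusted p under 0.05 there were 16 higher (22.5%) and 6 lower (8.45%), beside 18.4% and 12.7% of all genes. TMM and DESeq2 also called none lower, with 3 higher each; over all genes TMM gave 411 higher and 197 lower in place of 539 and 145, and DESeq2 gave 409 and 200. The median log2 ratio was 0.15 over 48 NAC genes and 0.07 over 17048. FU and FR were each compared with the same SY63 library, so their ratios to it are given side by side below and not as independent results.

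LOC_Os01g70110 had 83 tags in MH63 and 72 in ZS97, against 68 in SY63, 154 in FU and 44 in FR. FU stood alone above the other 4 libraries and FR was lowest. It was 2.28-fold higher in FU than in SY63 (log2 1.19, interval 0.77 to 1.62, FDR = 1.6e-07) and 3.64-fold higher than in FR (log2 1.86, interval 1.37 to 2.38, FDR = 1.2e-14), while its ratio of FR to SY63 was -0.67 on the log2 scale (interval -1.25 to -0.11, FDR = 0.088).

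OsNAC5 (LOC_Os11g08210) was 3.41-fold higher in FU than in SY63 (log2 1.77, interval 1.22 to 2.35, FDR = 1.2e-10), and its 122 tags in FU were above either parent. Its log2 ratio of FR to SY63 was 0.78 (interval 0.17 to 1.42, FDR = 0.069), so that both hybrids with a transgene had more tags than SY63. FU exceeded FR by a log2 ratio of 0.99, just short of the threshold. OsNAC3 (LOC_Os07g12340) was 2.52-fold higher in FU than in SY63 (log2 1.33, interval 0.83 to 1.86, FDR = 1.0e-06), with 115 tags in FU, 46 in SY63 and 97 and 101 in the parents. Its ratio of FR to SY63 was 0.54 (interval -0.02 to 1.11).

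ONAC022 (LOC_Os03g04070) was the 1 member called lower in FU, 2.92-fold below SY63 (log2 -1.55, interval -2.43 to -0.73, FDR = 6.1e-04). FR was on the same side, at -0.64 (interval -1.32 to 0.02, FDR = 0.19), and FU against FR gave -0.90 (FDR = 0.12). OsNAC6 (LOC_Os01g66120) was also lower in FU than in SY63 (log2 -0.53, FDR = 2.2e-06) and than in FR (-0.50, FDR = 9.8e-06), below the size threshold in both.

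Of the 3 senescence genes tested, 2 were called higher in FU than in FR, beside 2.54% of all genes. The list was chosen with earlier results known. ONAC106, with 2 tags in FU and 4 in FR, was not called (FDR = 0.67). OsNAP (LOC_Os03g21060) was 5.82-fold higher in FU (28 tags) than in FR (5 tags; log2 2.54, interval 1.15 to 4.27, FDR = 4.8e-04), with log2 ratios to SY63 of 0.73 in FU (interval -0.19 to 1.69) and -1.81 in FR (interval -3.60 to -0.31, FDR = 0.06). ONAC054 (LOC_Os03g02800) was at least 4.85-fold higher in FU (14 tags) than in FR (0 tags; FDR = 9.6e-04), and TMM and DESeq2 scaling ended that call (FDR = 0.0014 in both). LOC_Os07g48450 was 3.12-fold higher in FU than in FR (log2 1.64, interval 0.82 to 2.53, FDR = 2.7e-04), with log2 ratios to SY63 of 0.98 in FU and -0.66 in FR. None of the 3 was called against SY63 in either hybrid.

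**Figure D4:**
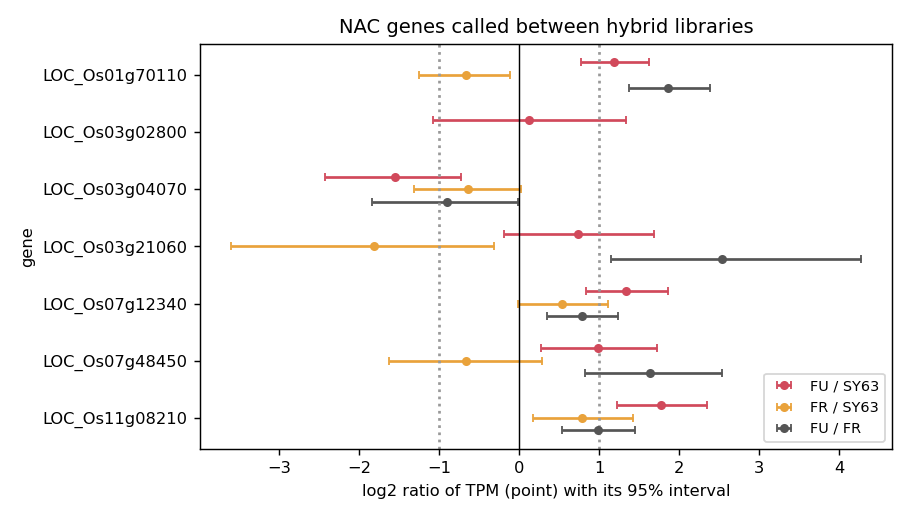
Log2 ratios of TPM with 95% intervals (x axis) for the 7 NAC genes called between hybrid libraries (y axis), for FU over SY63 (red), FR over SY63 (orange) and FU over FR (grey); dotted lines mark a log2 ratio of 1 in either direction, and ratios with 3 tags or fewer in a library are not drawn. LOC_Os01g70110, LOC_Os03g21060 and LOC_Os07g48450, all called in FU against FR, have points on opposite sides of 0 in FU and FR, and LOC_Os11g08210 lies above 0 in both. The ratios to SY63 share that library. The intervals of LOC_Os03g21060 in FU and of LOC_Os07g48450 in FR include 0.

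How much a NAC gene could show depended on its count. Of the 77 genes, 10 had at least 500 tags over the 5 libraries, 29 had at least 100 but under 500, 8 had 50 to 99, 17 had 10 to 49 and 13 had fewer than 10. In FU against SY63 the called gene with the fewest tags over all genes had 14 in both libraries together, and 49 of the NAC genes had as many. Over genes with that depth, 8.16% of the NAC genes were called, beside 3.82% of 16773 genes of all kinds. The same share was 20.0% beside 20.4% for SY63 against MH63, 8.33% beside 4.99% for SY63 against ZS97, 9.62% beside 21.4% between the parents, 0% beside 1.47% for FR against SY63, 8.33% beside 4.09% for FU against FR and 10.3% beside 7.39% for the mid-parent.

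Among the 47 members with at least 50 tags, the highest library had a median of 2.5 times the level of the lowest, beside 2.13 times over all genes with as many tags, and the ratio was at least 2 for 30 members (63.8%; 54.8% of all genes). Among the members with tags in every library, the widest ratio was that of OsNAP at 7.78 times; ONAC054, at 0 in FR, has no such ratio. The 30 of these members that were not called had mean levels of 2.03 to 180.0 TPM and ranges of 1.35 to 3.71 times. The other 30 members had 2 to 37 tags in all and at most 21 in any library, and 2 of them were called (LOC_Os01g01430 and LOC_Os11g03370). Tags were found in all 5 libraries for 51 members, and 5 members had tags in 1 library only. A difference in the scarce members was mostly not detectable at this depth.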

How the data were processed

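The authors deposited, for each of 5 pairs of libraries, a table of raw counts of unambiguous clean tags per gene with the TPM of each gene. According to the study's methods, NlaIII and MmeI tags were matched to the MSU rice cDNAs with a mismatch of 1 base considered, and tags of several genes were removed; the software was not given in the sources used here. The TPM that the authors deposited are these counts scaled to 1000000 clean tags, with 0.01 written for 0, and no count of 1 occurs in the tables. The authors' log2 ratios, p-values and FDR, the shortened tables and a table of genome-matched tags were not used.

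Counts were joined by gene, a missing gene taken as 0. Clean tag totals followed from counts and TPM. Libraries were compared on counts by the Audic and Claverie test, exact and 2-sided, with Benjamini-Hochberg adjustment over all genes with a tag in either library and 0.01 TPM in place of 0 for ratios; the mid-parent test used the summed parental counts. The test was checked on counts simulated with counting error only, so this check does not cover spread between replicates. Without replicates no quasi-likelihood fit in edgeR was possible. Alternatives were TMM factors (edgeR 4.0.16), DESeq2 1.42.0 size factors, at least 10 tags, 1 added to every TPM, and edgeR's exact test with assumed coefficients of variation of 0.2 and 0.4. Intervals of levels are exact Poisson intervals. Python 3.11.15, SciPy 1.17.1 and R 4.3.3 were used.

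Genes named were those called in any comparison, the 10 most abundant, those just outside the thresholds (log2 from 0.8 to 1) and those of the lists; LOC_Os10g33760 is named in addition, after its values were seen. The members and lists were chosen with earlier results of these data known. No sequence, coordinate or promoter is given, since no genome or sequence table was used here.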

Additional observations from a re-analysis of the deposited data

Results flagged for a closer look

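For 4 NAC genes the over-expression and the RNAi hybrid differed in the direct exact test of FU against FR. They were 5.63% of the 71 NAC genes tested, all higher in FU, beside 2.54% of all genes called higher. The log2 ratio of FU to FR was 1.86 for LOC_Os01g70110, 2.54 for OsNAP (LOC_Os03g21060) and 1.64 for LOC_Os07g48450, and LOC_Os03g02800 had 14 tags in FU and 0 in FR. Each rests on 1 library per genotype, and none of the 4 kept its call where a coefficient of variation of 0.2 between replicates was assumed. That setting lowered the share called over all genes from 3.22% to 0.169%, so the loss is not particular to these genes.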

How the results depend on the processing

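Of the 33 gene calls, 27 kept their side of the thresholds with TMM factors, 28 with DESeq2 size factors, 31 with 1 added to every TPM and 33 with at least 10 tags. No call could change direction in these runs. The scalings moved log2 ratios by little beside the 1 that a call needs, and the other alternatives leave the sign as it is. TMM and DESeq2 gave 10 and 9 NAC calls for SY63 against MH63, 8 of them shared with the 10 of the main test in each case, and 5 and 5 for the mid-parent in place of 6. Over all genes they called 15.9% and 15.8% in place of 16.5% for SY63 against MH63. For the mid-parent they called 5.99% and 6.01% of all genes in place of 6.34%. With at least 10 tags, FR against SY63 gave 1 NAC call in place of 0, beside 1.44% of all genes in place of 1.16%. Assuming a coefficient of variation of 0.2 left 1 NAC call for SY63 against MH63 and 1 for MH63 against ZS97. It left 0 for SY63 against ZS97, FU against SY63, FU against FR and the mid-parent. The shares of all genes still called were 3.31%, 4.61%, 0.635%, 0.169%, 0.169% and 1.06% in the same order. A coefficient of 0.4 left 0 NAC calls in all of these, beside at most 0.944% of all genes. The OsHDT1 log2 ratio of 4.16 in FU was no longer called at 0.4, and that of -1.64 in FR was not called at 0.2 or 0.4, because the assumed spread enters the test. No library could be left out, since each genotype has 1. No gene with fewer than 12 tags in a pair of libraries was called.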
